A study of Mus musculus with 2 samples.

Results

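The genes Cd4, Cd8a, Cd8b1, Zbtb7b, Runx3 and Gata3 were followed across the blood cells of db/db and wild-type (wt) mice. They are 6 of the 31053 genes listed in each library and were chosen by name for their part in the choice between the CD4 and CD8 T cell lineages. Raw UMIs (unique molecular identifiers, 1 per captured transcript) were read in barcodes with 200 to 6000 detected genes whose mitochondrial UMIs stayed under 10%. Each genotype gave 1 droplet single-cell RNA library of peripheral blood after red cell lysis, from 3 male mice of the C57BLKs/J strain aged 21 weeks and 200 µl of blood. The db/db mice carry a mutation in Lepr, the gene of the leptin receptor, and become obese and diabetic, whereas wt mice of the same strain carry no such mutation. No deposited file ties a cell to a mouse, so no replicates and no tests were available. Intervals are at the 95% level and take in counting error alone.

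Cd4 and the pair Cd8a and Cd8b1 encode the coreceptors that help the T cell receptor bind MHC class II and class I molecules. In the thymus a developing T cell keeps one coreceptor and silences the other. The transcription factor ThPOK, encoded by Zbtb7b, holds helper cells in the CD4 lineage by restraining Runx3, while Runx3 silences Cd4 and opens the cytotoxic programme of CD8 cells. Gata3 acts upstream of Zbtb7b in the CD4 branch and later drives type 2 helper cells. Runx3 also works in NK cells and Gata3 in innate lymphocytes, and the CD8 alpha chain can pair with itself without the beta chain.

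There were 19912 barcodes with 70039773 UMIs in db/db and 16700 with 50540198 UMIs in wt. Of these, 6109 db/db and 5727 wt barcodes were kept, with medians of 2523 and 2562 UMIs. Lepr had 0 UMIs in both libraries, which allows up to 0.0428 CPM in db/db and 0.0594 CPM in wt, and 3′ tags do not check the mutation. The mitochondrial limit removed 5.77% of db/db and 24.4% of wt barcodes with enough genes. The libraries shared 91 barcode sequences, of which 11 were kept in both. Cluster 19, named erythroid with 42 db/db and 34 wt cells, also had the T cell genes Bcl11b and Ikzf2 among its leading genes. Beside leukocytes the kept barcodes included erythroid cells, platelets and, in db/db, 110 barcodes with kidney proximal tubule genes.

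Cells were clustered without the 6 genes, and clusters were named from markers that do not include them. The class names thus do not rest on the values of the 6 genes. The T cell naming markers do include Bcl11b, Tcf7, Lef1, Cd5 and the receptor complex genes listed below other than Cd247. Values of those genes in T cells come from cells named partly by them. T cell-like barcodes, called T cells here, numbered 489 in db/db and 684 in wt, which is 8.0% (7.34 to 8.71) and 11.9% (11.1 to 12.8) of kept barcodes. They had medians of 3090 and 3614 UMIs per cell. The defining T cell markers Cd3d, Cd3e, Cd3g and Trac summed to 1765 CPM (UMIs per 1e6 UMIs of the sum) in db/db and 1978 CPM in wt T cells. Transcripts of other cells were present in the same sums. The defining platelet markers summed to 222 CPM in db/db and 48.8 CPM in wt T cells, the defining B cell markers to 373 and 263 CPM, and the defining NK cell markers to 9.88 and 4.73 CPM with 2 of 4 detected in each. Gm42418, a locus that collects ribosomal RNA fragments, had a median share per T cell of 0.698% in db/db and 2.24% in wt. The part of these differences in the results was not tested beyond the values without such cells given below.

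The members lie on 4 chromosomes in GRCm38, with Cd8b1 (chr6:71322788-71337494) and Cd8a (chr6:71373427-71379173) as neighbours on the plus strand and Cd4 (chr6:124864692-124888221) on the minus strand of the same chromosome. Zbtb7b spans chr3:89377644-89394776 on the minus strand, Runx3 chr4:135120652-135177990 on the plus strand and Gata3 chr2:9857078-9890034 on the minus strand. RefSeq promoters (GRCm38.p6) were matched for Cd8a, Zbtb7b, Runx3 and Gata3. The 250 bases before the start were searched on both strands for the RUNX motif (TGTGGT or TGCGGT), the letters that Runx3 and its relatives bind, and for a GATA motif (AGATAA or TGATAA). These promoters are shown because Runx3 and its relatives regulate genes of both lineages. Lower case marks the promoter and capitals mark a RUNX motif as read on the gene's strand, where ACCACA is the motif on the opposite strand.
Runx3 distal promoter, chr4:135120395-135120644, plus strand: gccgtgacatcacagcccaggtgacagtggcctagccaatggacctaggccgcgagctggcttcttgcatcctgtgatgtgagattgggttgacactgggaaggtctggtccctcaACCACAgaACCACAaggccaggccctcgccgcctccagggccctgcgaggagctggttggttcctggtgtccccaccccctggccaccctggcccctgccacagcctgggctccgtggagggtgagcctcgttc
Runx3 proximal promoter, chr4:135152295-135152544, plus strand: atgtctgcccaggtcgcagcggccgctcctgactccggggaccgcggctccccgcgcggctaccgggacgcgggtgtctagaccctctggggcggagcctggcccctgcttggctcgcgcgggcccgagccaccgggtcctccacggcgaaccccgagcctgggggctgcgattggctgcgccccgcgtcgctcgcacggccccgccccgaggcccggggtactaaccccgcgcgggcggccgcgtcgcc
Zbtb7b downstream promoter, chr3:89387672-89387921, minus strand: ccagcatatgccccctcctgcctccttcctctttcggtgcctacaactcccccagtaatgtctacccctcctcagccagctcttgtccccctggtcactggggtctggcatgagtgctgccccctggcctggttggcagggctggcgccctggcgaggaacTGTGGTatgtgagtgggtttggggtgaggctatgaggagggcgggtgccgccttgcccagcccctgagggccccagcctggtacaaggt
Cd8a promoter, chr6:71373177-71373426, plus strand: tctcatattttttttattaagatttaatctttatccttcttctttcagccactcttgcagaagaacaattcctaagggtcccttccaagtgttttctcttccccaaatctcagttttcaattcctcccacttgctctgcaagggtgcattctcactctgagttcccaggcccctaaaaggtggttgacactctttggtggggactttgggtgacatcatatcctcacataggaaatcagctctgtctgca
The distal Runx3 promoter held 2 RUNX motifs, 134 and 126 bases before the start, and the downstream Zbtb7b promoter held 1 such motif, 89 bases before it. The RUNX motif occurred in 18.6% of 32851 promoter windows of that length and the GATA motif in 16.6%. The proximal Runx3 promoter, the Cd8a promoter, the upstream Zbtb7b promoter and the Gata3 promoter held neither set of letters. A match is a description of the letters and not a bound site.

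The coreceptors were read mostly in T cells. Of all kept UMIs, T cells held 87.4% of Cd4 in db/db and 93.7% in wt, 94.7% and 97.8% of Cd8a, and 96.1% and 98.2% of Cd8b1. In B cells, which should lack the coreceptors and had medians of 2193 and 2279 UMIs, a Cd4 UMI was seen in 1 of 2071 db/db cells and 2 of 2496 wt cells. The share of B cells with a Cd4 UMI was thus 0.0483% and 0.0801%, against 17.8% of db/db and 28.2% of wt T cells. Whether the UMIs in B cells came from free RNA or from barcodes of mixed cells was not tested. Gata3 was divided between T cells and NK cells: T cells held 81.3% of its UMIs in db/db and 78.0% in wt. Runx3 and Zbtb7b were spread over blood. T cells held 23.9% of db/db and 35.6% of wt Runx3 UMIs, and 5.54% and 23.3% of Zbtb7b UMIs.

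**Figure D1:**
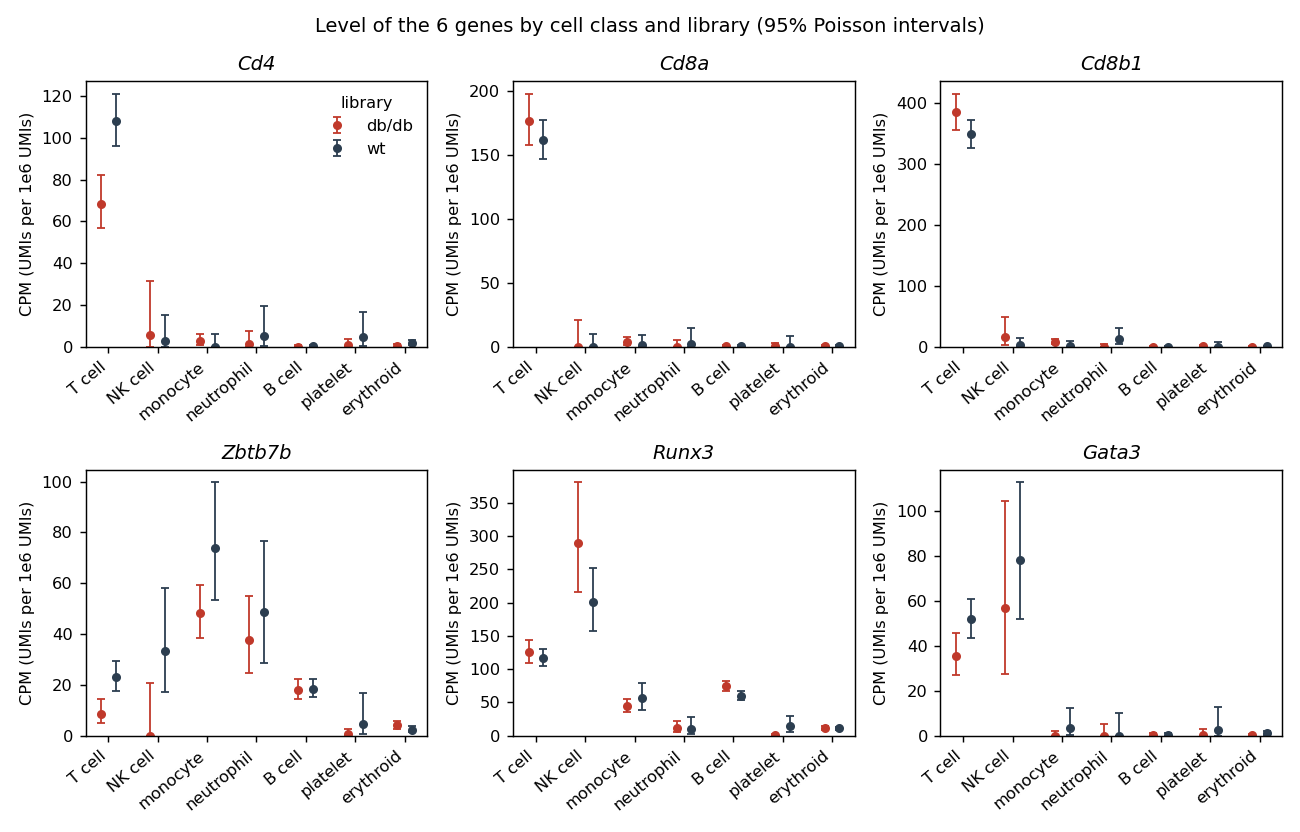
Level of each of the 6 genes in CPM, with exact Poisson 95% intervals, db/db left of wt. The classes drawn are T cells, NK cells, monocytes, neutrophils, B cells, platelets and erythroid cells, without basophils and kidney barcodes. Among the classes drawn, the coreceptors stand in T cells, Runx3 is highest in NK cells and Zbtb7b is highest in monocytes.

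Within T cells Cd4, Zbtb7b and Gata3 had ratios whose intervals lay below 1 in db/db over wt, and those of Cd8a, Cd8b1 and Runx3 included 1. Cd4 had 118 UMIs in db/db and 297 in wt T cells, which is 68.6 CPM (56.8 to 82.1) and 108 CPM (96.1 to 121). Its ratio was 0.635 (0.508 to 0.788) and its log2 ratio of CPM plus 10 was -0.59. Zbtb7b, which guards the CD4 lineage, had 15 UMIs in db/db and 63 in wt T cells, or 8.72 CPM (4.88 to 14.4) and 22.9 CPM (17.6 to 29.3). Its ratio was 0.380 (0.201 to 0.676) and its log2 ratio was -0.81.

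Gata3 had 61 UMIs in db/db and 142 in wt T cells, at 35.5 CPM (27.1 to 45.5) and 51.7 CPM (43.5 to 60.9). Its ratio was 0.686 (0.500 to 0.933), with a log2 ratio of -0.44. Cd8a had 304 UMIs in db/db and 443 in wt, at 177 CPM (157 to 198) and 161 CPM (147 to 177), a ratio of 1.10 (0.944 to 1.27). Cd8b1 had 661 UMIs in db/db and 957 in wt, at 384 CPM (355 to 415) and 348 CPM (327 to 371), a ratio of 1.10 (0.998 to 1.22). Runx3 had 216 and 321 UMIs, at 125.5 CPM in db/db and 116.8 CPM in wt, a ratio of 1.07 (0.900 to 1.28).

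A gene was counted as past the mark when its CPM plus 10 differed at least 1.5-fold and its ratio interval excluded 1. Among 8823 genes with at least 20 UMIs in T cells of both libraries together, 1.22% were past the mark as lower in db/db and 1.59% as higher. Of the 6 members, 2 were lower (Cd4 and Zbtb7b), and 0 were higher. Cd4 lay close to the mark: it was under it in 8 of 16 alternative settings, with log2 ratios between -0.69 and -0.35 over all of them, while Zbtb7b was past it in all 16. Without the 88 db/db and 67 wt T cells that carried defining markers of another lineage, the ratio of Cd4 was 0.708 (0.559 to 0.891), that of Zbtb7b 0.401 (0.201 to 0.740) and that of Gata3 0.686 (0.481 to 0.964). Without the T subclusters led by haemoglobin, Dnah8, B cell and platelet genes, a choice made after the data were seen, the Cd4 log2 ratio was -0.35 (-0.72 to 0.02), an interval that includes 0.

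The T cells came from clusters 2 and 15, and the members were read in each. In cluster 2 (427 db/db and 583 wt cells) Cd4 was at 65.7 CPM in db/db and 103 CPM in wt, a ratio of 0.639 (0.501 to 0.810), and in cluster 15 (62 and 101 cells), led by Ccl5, Lgals1 and Ikzf2, at 90.4 and 140 CPM, a ratio of 0.645 (0.356 to 1.12). The Cd4 ratio was thus near the same value in both clusters. Zbtb7b in cluster 2 was at 6.57 CPM in db/db and 20.7 CPM in wt, a ratio of 0.317 (0.143 to 0.633), and in cluster 15 at 25.1 and 36.3 CPM with an interval that spans 1 (0.195 to 2.03). Gata3 was higher in cluster 15 than in cluster 2, at 90.4 against 28.3 CPM in db/db and 153 against 35.1 CPM in wt. Its ratio between genotypes was 0.805 (0.543 to 1.18) in cluster 2 and 0.590 (0.328 to 1.02) in cluster 15, and both intervals include 1.

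**Figure D2:**
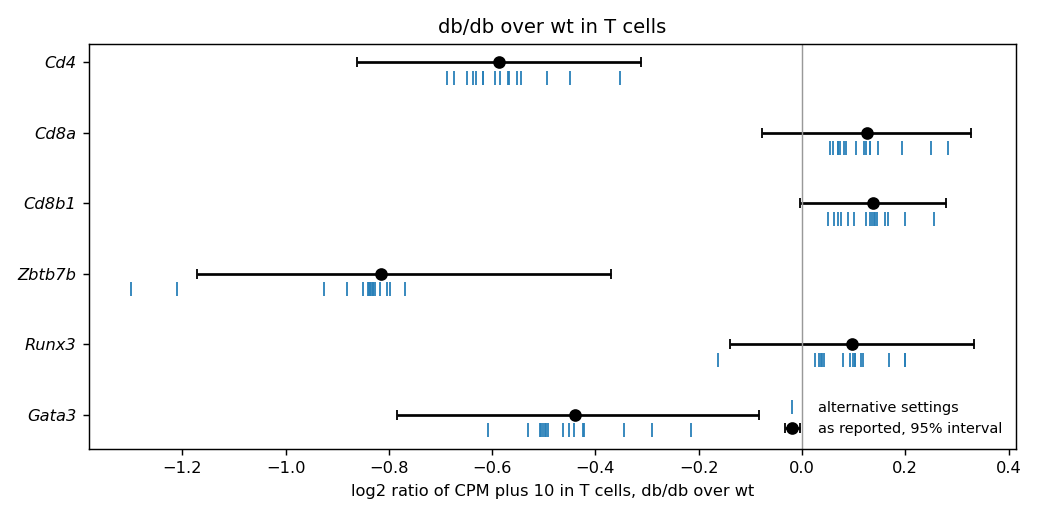
Log2 ratio of CPM plus 10 in T cells, db/db over wt, for the 6 genes. Black points with 95% intervals are the reported values and blue ticks the alternative settings. Cd4, Zbtb7b and Gata3 stay below 0 in every setting drawn.

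The balance of Cd4 against Cd8a and Cd8b1 was taken from the same UMIs, so it restates the ratios above. T cells of db/db held 0.12 Cd4 UMIs per UMI of Cd8a or Cd8b1 (118 against 965 UMIs), and wt T cells held 0.21 (297 against 1400), an odds ratio of 0.577 (0.455 to 0.728). Intervals on UMIs, here and elsewhere, treat each UMI as independent, although 1 cell can hold several UMIs of a gene. The proportion of the CD8 chains did not differ beyond counting error. Cd8a UMIs per Cd8b1 UMI were 0.46 in db/db and 0.46 in wt, an odds ratio of 0.99 (0.83 to 1.19). Of the cells with a Cd8a UMI, 92.3% in db/db and 90.0% in wt also had a Cd8b1 UMI. Cd8a without Cd8b1 was seen in 11 db/db cells and 19 wt cells. An absent Cd8b1 transcript cannot be told from a missed one in these cells, so use of the alpha chain alone was not measured. Cd8a was seen in 0 of the 87 db/db and 1 of the 193 wt T cells with a Cd4 UMI, and Cd8b1 in 3 and 8 of them.

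T cells were then split by the coreceptor transcripts they held. Cd8 cells, with Cd8a or Cd8b1 and no Cd4, numbered 216 of 489 in db/db (44.2%, 39.7 to 48.7) and 249 of 684 in wt (36.4%, 32.8 to 40.1), a ratio of 1.21 (1.01 to 1.46). Counting every T cell with a Cd8a or Cd8b1 UMI gave a ratio of 1.19 (0.987 to 1.43), and 1.15 (0.940 to 1.40) without cells of several lineages, which were 39 of the 216 db/db and 15 of the 249 wt Cd8 cells. The defining B cell markers summed to 332 CPM in db/db and 118 CPM in wt Cd8 cells, and their part in these shares was not tested. Cd4 cells, with Cd4 alone, numbered 84 in db/db (17.2%, 13.9 to 20.8) and 184 in wt (26.9%, 23.6 to 30.4), a ratio of 0.64 (0.49 to 0.83). Per Cd8 cell there were 0.39 Cd4 cells in db/db and 0.74 in wt, an odds ratio of 0.527 (0.378 to 0.730). Cells with both kinds were 3 in db/db and 9 in wt, and cells with neither made up 38% and 35.4%. Cd4 cells had medians of 2545 UMIs in db/db and 3301.5 in wt, and Cd8 cells medians of 4221 and 4569, so depth differs between the groups.

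When each cell was thinned to 1000 UMIs, 456 db/db and 670 wt T cells remained. Cd4 cells were then 8.77% of db/db and 12.7% of wt T cells, a ratio of 0.69 (0.46 to 1.02), and Cd8 cells 29.6% and 25.5%, a ratio of 1.16 (0.92 to 1.46). Both intervals include 1 at that depth, with the same direction as before thinning. Most Cd4 cells rested on few transcripts: 64 db/db and 131 wt T cells had 1 Cd4 UMI, and 4 db/db and 28 wt T cells had 3 or more.

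**Figure D3:**
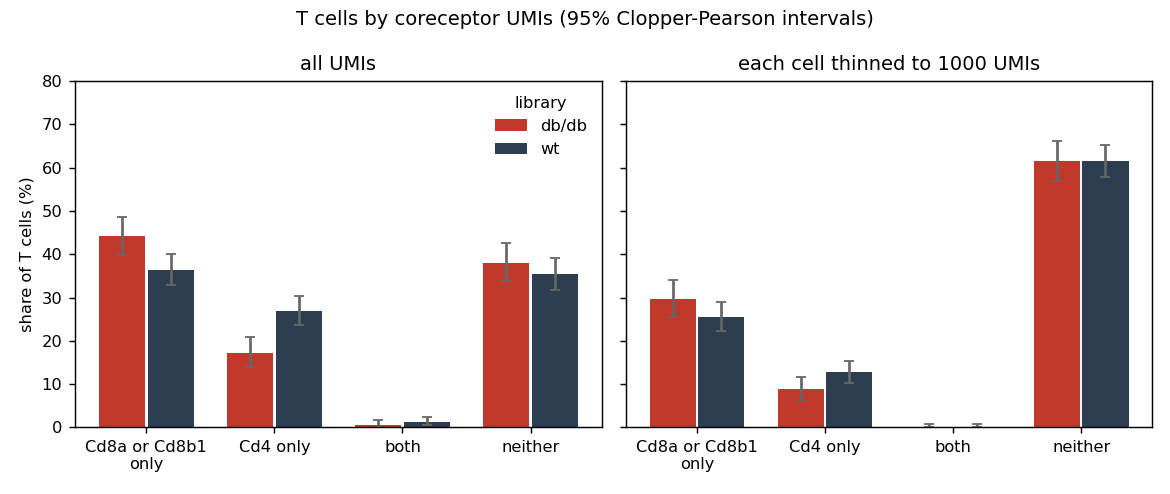
Share of T cells in each coreceptor group, in percent with Clopper-Pearson 95% intervals, db/db left of wt, for all UMIs and for cells thinned to 1000 UMIs. Cd8 cells are 44.2% of db/db and 36.4% of wt T cells, and Cd4 cells are 17.2% and 26.9%.

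The transcription factors took no part in making these groups. Runx3 differed between Cd8 and Cd4 cells in both libraries, whereas Zbtb7b and Gata3 differed in wt and, in db/db, had too few UMIs or an interval that includes 1. CPM here is over UMIs without the 6 genes. Runx3 was at 169 CPM (144 to 197) in db/db Cd8 cells and 171 CPM (148 to 195) in wt Cd8 cells, against 68.7 CPM (40.7 to 109) in db/db Cd4 cells and 59.3 CPM (42.4 to 80.8) in wt Cd4 cells. The ratio of Cd8 over Cd4 cells was 2.46 (1.51 to 4.25) in db/db and 2.88 (2.04 to 4.14) in wt. Among all genes measured in this contrast, 6.45% in db/db and 3.08% in wt were past the mark as higher in Cd8 cells. In db/db the Runx3 log2 ratio of 1.18 was 0.71 in cells thinned to 1000 UMIs and 0.89 where at least 2 coreceptor UMIs were asked for, with intervals that include 0. There were 2 Zbtb7b UMIs in db/db Cd8 cells and 2 in wt Cd8 cells, against 2 in db/db Cd4 cells and 36 in wt Cd4 cells.

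In wt the Zbtb7b level was 1.62 CPM (0.196 to 5.84) in Cd8 cells and 53.4 CPM (37.4 to 73.9) in Cd4 cells, a ratio of 0.0303 (0.0035 to 0.118). Between genotypes, Zbtb7b was at 7.63 CPM (0.925 to 27.6) in db/db Cd4 cells and 53.4 CPM in wt Cd4 cells, a ratio of 0.143 (0.0167 to 0.555) from 2 and 36 UMIs. The defining B cell markers, of a class that also holds Zbtb7b, summed to 244 CPM in db/db and 484 CPM in wt Cd4 cells, and their part in this difference was not tested. Among 4790 genes measured in Cd4 cells, 5.66% were past the mark as lower in db/db. The log2 ratio of -1.85 rested on few cells: its interval included 0 in thinned cells (-3.21), with at least 2 coreceptor UMIs (-1.65) and without the T subclusters led by haemoglobin, Dnah8, B cell and platelet genes (-1.39). In cells with neither coreceptor Zbtb7b was at 22.3 CPM in db/db and 29.7 CPM in wt, with 11 and 24 UMIs. Gata3, which acts above Zbtb7b, was at 34.4 CPM (15.7 to 65.2) in db/db Cd4 cells and 69.7 CPM (51.2 to 92.7) in wt Cd4 cells. The ratio of these levels, 0.493 (0.212 to 1.02), had an interval on both sides of 1.

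Cd8 cells held less Gata3 than Cd4 cells in wt, at 34.0 and 69.7 CPM with a ratio of 0.487 (0.314 to 0.755). In db/db the levels were 21.0 CPM in Cd8 cells and 34.4 CPM in Cd4 cells, a ratio of 0.61 (0.27 to 1.52). Runx3 was seen in 48.6% of db/db and 49.8% of wt cells with a Cd8b1 UMI, and in 13.8% of db/db and 17.1% of wt cells with a Cd4 UMI. Zbtb7b was seen in 2 of 87 db/db and 28 of 193 wt cells with a Cd4 UMI.

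**Figure D4:**
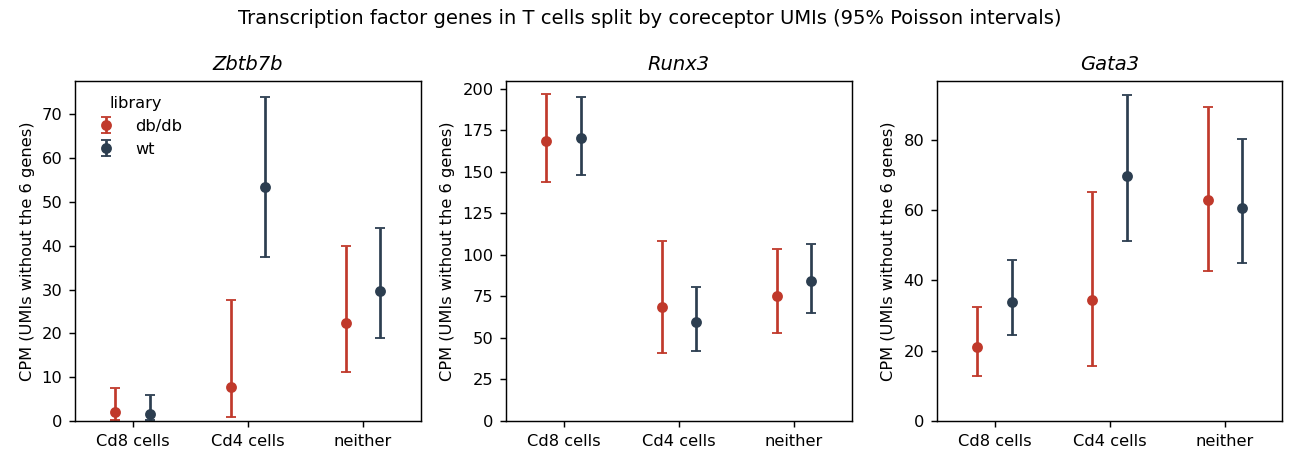
Level of Zbtb7b, Runx3 and Gata3 in CPM, with exact Poisson 95% intervals, in Cd8 cells, Cd4 cells and cells with neither, db/db left of wt. Zbtb7b reaches 53.4 CPM in wt Cd4 cells and 7.63 CPM in db/db Cd4 cells, and Runx3 is highest in Cd8 cells of both.

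Clustering the T cells again, without the 6 genes, gave 10 subclusters. Subcluster 0, led by Ly6c1, Igfbp4 and St8sia6 with Cd4 itself, held 103 db/db and 154 wt cells. Cd4 was at 240 CPM (180 to 314) in db/db and 207 CPM (166 to 254) in wt there, a ratio of 1.16 (0.81 to 1.65), and Cd4 cells were 35.9% and 41.6% of its cells. The interval of the Cd4 ratio thus lay on both sides of 1 in this subcluster. Subcluster 2, led by Dapl1, Fam241a and Lcn4 with Cd8a and Cd8b1, held 80 db/db and 115 wt cells, of which 83.8% and 83.5% were Cd8 cells. Cd8b1 was at 734 CPM in db/db and 759 CPM in wt there, a ratio of 0.966 (0.811 to 1.15). Runx3 was at 215 CPM in db/db and 147 CPM in wt in subcluster 2, a ratio of 1.46 (1.02 to 2.08).

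Subcluster 4, led by the chemokine gene Ccl5, Ly6c2 and the cytotoxic granule gene Nkg7, held 64 db/db and 41 wt cells, which is 13.1% and 5.99% of T cells. Cd4 had 0 UMIs in it in both libraries. Cd8b1 was at 630 CPM in db/db and 488 CPM in wt, a ratio of 1.29 (1.01 to 1.66), and Cd8 cells were 87.5% and 63.4% of its cells. Runx3 was at 129 CPM in db/db and 198 CPM in wt, a ratio of 0.65 (0.41 to 1.04). Subcluster 5, led by S100a4, Lgals1 and Maf, had the highest Gata3 among subclusters with over 30 cells in each library, at 145 CPM (79.5 to 244) in db/db and 205 CPM (142 to 286) in wt. Cd4 was at 93.5 CPM (42.8 to 177) in db/db and 229 CPM (162 to 314) in wt in subcluster 5.

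A larger part of the Cd4 UMIs lay in subcluster 3 in wt than in db/db. Subcluster 3, led by Dnah8 and with Gm42418 among its leading genes, held 38 db/db and 130 wt cells, and 11 of the 118 db/db Cd4 UMIs and 87 of the 297 wt Cd4 UMIs. Subcluster 6, led by B cell genes, had Cd8b1 at 264 CPM in db/db and 115 CPM in wt and Cd4 at 19.9 and 88.9 CPM. Subcluster 8, led by Il2ra, Foxp3 and Ctla4, genes of regulatory T cells, held 11 db/db and 28 wt cells, too few for a level of Zbtb7b, which had 1 and 2 UMIs in it.

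**Figure D5:**
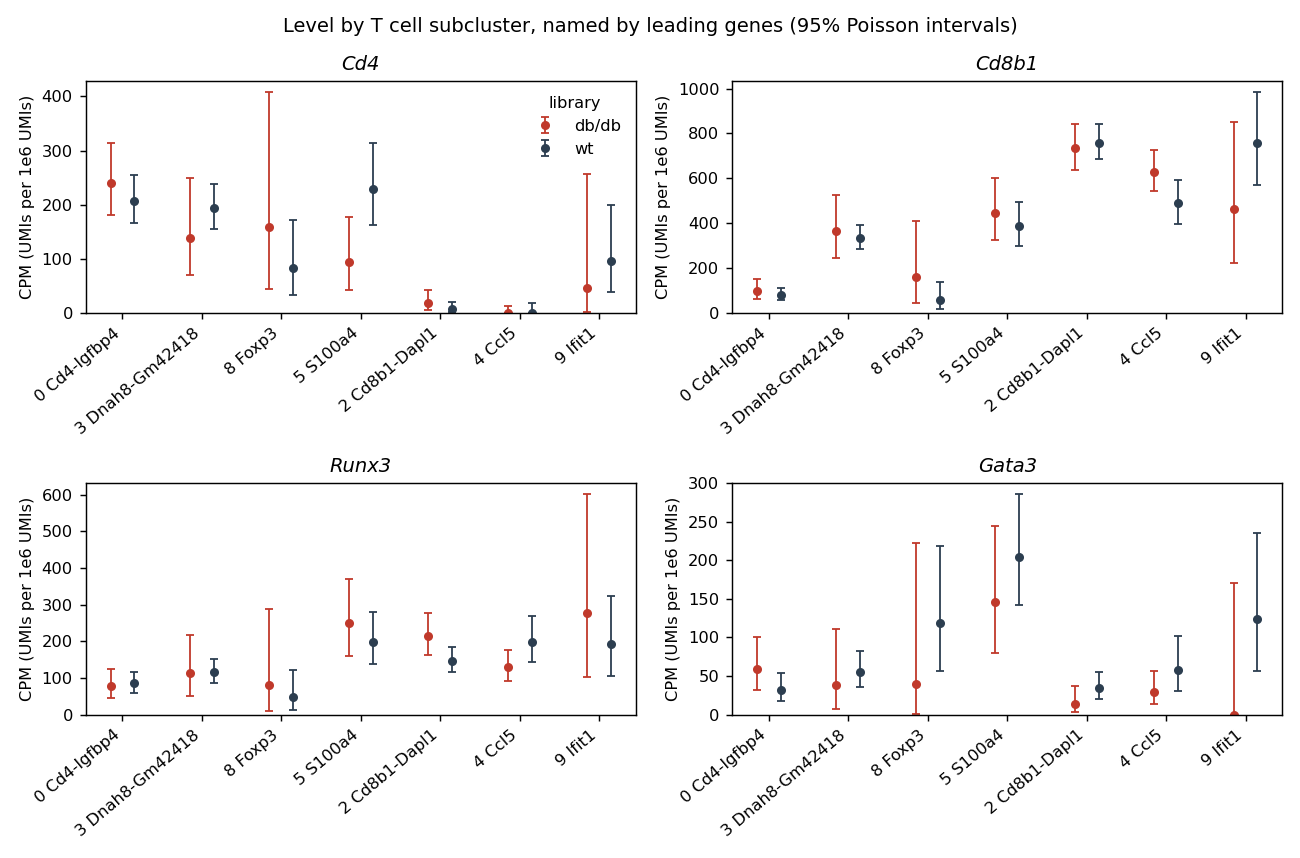
Level of Cd4, Cd8b1, Runx3 and Gata3 in CPM in the T subclusters not led by haemoglobin, B cell or platelet genes, with exact Poisson 95% intervals, db/db left of wt. Cd8b1 reaches 734 CPM in db/db and 759 CPM in wt in subcluster 2, Cd4 has 0 UMIs in subcluster 4, and Gata3 in subcluster 5 is at 145 CPM in db/db and 205 CPM in wt.

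The other genes of the pathway were counted by lists. All 22 regulators that act on this choice were measured in T cells, and 0 of 22 were past the mark. Over all 8823 genes 1.22% were past it as lower and 1.59% as higher, so 0 of 22 is near that share. The median log2 ratio of the regulators was -0.19 against -0.02 over all genes. The naive-cell factors Tcf7 and Lef1 were at -0.48 and -0.47, Bcl11b at -0.40, and Socs1, which damps cytokine signals, at 0.48. Of 15 CD8 genes, 3 were past the mark as higher, and the list's median was 0.37. Ccl5 was at 1771 CPM in db/db and 956 CPM in wt, Cst7 at 47.7 and 28.0 CPM, and Gzmm at 14.5 and 4.0 CPM.

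Of 12 CD4 helper genes, 2 were lower and 2 higher, with a median of -0.14. Cd40lg, the ligand that helper cells show to B cells, was at 9.88 CPM in db/db and 24.4 CPM in wt, and Il2ra at 4.07 and 16.0 CPM. Tnfsf8 and Itgb1 were higher, with log2 ratios of 0.78 and 0.62. Between Cd8 and Cd4 cells, Tnfsf8 was past the mark in neither library, and Itgb1 in wt alone, as lower in Cd8 cells. Of the 8 T cell receptor complex genes 0 were past the mark, near the share over all genes, with a median of -0.19. Type 2 genes had 2 of 10 measured, and unconventional T cell genes 2 of 8 found, with 0 past the mark in each. In these sums a different makeup of cells and a different level per cell cannot be told apart. Ccl5 is also a platelet transcript, and the part of the platelet transcripts given above in its level was not tested.

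Cd8 and Cd4 cells also differed in the listed genes of each lineage. CD8 genes were past the mark as higher in Cd8 cells for 10 of 11 measured in db/db and 12 of 12 in wt, with medians of 1.52 and 1.99. Over all genes of the contrast, 6.45% in db/db and 3.08% in wt were past it as higher. A measured gene had at least 20 UMIs over Cd8 and Cd4 cells together. Cd8 cells held more UMIs than Cd4 cells, 953901 against 261980 in db/db and 1236140 against 674101 in wt. Genes such as Cst7, with 75 and 0 UMIs in db/db, were thus measured through Cd8 cells alone. The counts are a description and not a test. CD4 helper genes were past it as lower for 5 of 7 in db/db and 8 of 9 in wt, with medians of -0.97 and -1.14. Among all genes of the contrast, 4.23% in db/db and 6.84% in wt were past the mark as lower in Cd8 cells. Over all genes the medians were 0.09 in db/db and -0.10 in wt. Of 19 regulators measured in this contrast in db/db, 2 were past the mark as higher in Cd8 cells and 4 as lower. In wt 20 were measured, with 3 higher and 4 lower. The regulators' median log2 ratios were -0.08 in db/db and -0.18 in wt. Runx1, a relative of Runx3, was lower in Cd8 cells, at log2 ratios of -1.80 in db/db and -1.05 in wt, and Bcl11b at -0.80 and -0.70. Id2, which opposes E proteins, was higher in Cd8 cells, at 0.67 in db/db and 0.88 in wt.

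The same contrast was read gene by gene without the 6 genes and without mitochondrial, ribosomal protein, haemoglobin, sex-linked, variable-segment and unnamed genes. This left 5166 genes with at least 20 UMIs in each library. Ratio intervals lay above 1 in both libraries for 124 of them, higher in Cd8 cells, and below 1 in both for 116, higher in Cd4 cells. The 1.5-fold mark was not asked for here. The leading genes of Cd8 cells were Ly6c2, Fam241a, Plac8, Lcn4, the granule genes Gzma and Cst7, the NK receptor gene Klrd1 and Racgap1. Ly6c2 was at 646 CPM in db/db and 549 CPM in wt Cd8 cells, against 7.63 and 1.48 CPM in Cd4 cells. The leading genes of Cd4 cells were Ly6c1, St8sia6, Maf, Tspan32, Trat1, Pecam1, Trib2 and the costimulatory receptor gene Cd28. Ly6c1 was at 2.10 CPM in db/db and 4.04 CPM in wt Cd8 cells, against 210 and 99.4 CPM in Cd4 cells.

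Within Cd4 cells, 1.65% of the measured genes were past the mark as higher in db/db, and the median over all of them was -0.16. Of 6 measured CD8 genes 2 were higher and 0 lower, and of 9 measured CD4 helper genes 0 were past the mark. Ccl5 was at 893 CPM in db/db and 92.0 CPM in wt Cd4 cells, a ratio of 9.71 (7.31 to 13.1), and Nkg7 at 134 and 62.3 CPM, a ratio of 2.14 (1.33 to 3.44). The defining platelet markers summed to 149 CPM in db/db and 29.7 CPM in wt Cd4 cells, and their part in the Ccl5 level was not tested. Il4ra, a receptor chain for the type 2 cytokine IL-4, was at 42.0 CPM in db/db and 99.4 CPM in wt, a ratio of 0.422 (0.201 to 0.805). Of 19 measured regulators 1 was past the mark, Socs1, higher in db/db at 42.0 and 14.8 CPM.

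Outside T cells, Runx3 was highest in NK cells, innate cytotoxic lymphocytes, at 289 CPM (216 to 380.5) in db/db and 200 CPM (157 to 252) in wt. The ratio was 1.45 (0.990 to 2.10). In B cells it was at 74.6 CPM (67.2 to 82.6) in db/db and 59.9 CPM (53.9 to 66.4) in wt, a ratio of 1.24 (1.07 to 1.44), under the 1.5-fold mark that 0.76% of B cell genes passed as higher. B cells of db/db were mostly in cluster 0 (1707 of 2071, against 1137 of 2496 in wt), where the Runx3 ratio was 1.14 (0.943 to 1.39). The log2 ratio of 0.27 over all B cells was 0.08 (-0.08 to 0.24) where the minimum of genes was 100, and 0.07 (-0.12 to 0.26) where mitochondrial UMIs were held under 5%, and its interval also included 0 in thinned cells. Gata3 in NK cells was at 56.7 CPM in db/db and 77.8 CPM in wt, a ratio of 0.729 (0.316 to 1.55), and it had at most 2 UMIs in monocytes, neutrophils, B cells and platelets of either library.

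Zbtb7b was highest in monocytes, with 88 UMIs in db/db and 43 in wt, or 48.1 CPM (38.6 to 59.3) and 74.0 CPM (53.6 to 99.7). Its ratio was 0.650 (0.447 to 0.959) and its log2 ratio -0.53, under the mark that 5.09% of monocyte genes passed as lower in db/db. Without cells with markers of several lineages the ratio was 0.552 (0.360 to 0.861). The mark was passed in 5 of 15 alternative settings, those cells left out among them, and the interval included 0 under median-of-ratios scaling (-0.48). Most db/db monocytes were in cluster 14 (191 of 369) and most wt monocytes in cluster 13 (72 of 125), and the level differed between these clusters. Zbtb7b was at 65.4 CPM in db/db and 103 CPM in wt in cluster 13, led by Apoe, Ear2 and Fcgr4, and at 39.1 and 51.7 CPM in cluster 14, led by Lyz2, Fn1 and Chil3. Within the clusters the ratios were 0.633 (0.378 to 1.08) and 0.757 (0.427 to 1.41), with intervals that include 1. Neutrophils followed at 37.7 CPM in db/db and 48.6 CPM in wt, then B cells at 18.1 and 18.4 CPM, a ratio of 0.981 (0.735 to 1.31). NK cells held 0 Zbtb7b UMIs in db/db, which allows up to 17.0 CPM, and 12 UMIs in wt, at 33.4 CPM (17.2 to 58.3). Neutrophil and monocyte intervals overlapped in both libraries. T cells of db/db, at 8.72 CPM (4.88 to 14.4), lay below B cells of db/db (14.6 to 22.2), and in wt these intervals overlapped.

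Coreceptor UMIs were few in monocytes, which had medians of 4951 UMIs in db/db and 3624 in wt. Cd4 had 5 UMIs in 5 of 369 db/db monocytes, or 2.73 CPM (0.888 to 6.38), and 0 in 125 wt monocytes, which allows up to 5.16 CPM. Cd8b1 had 14 UMIs in 4 db/db monocytes and 1 in wt, and 10 of those 14 were in 1 cell. Without cells of several lineages Cd8b1 had 2 UMIs in db/db and 1 in wt.

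The genes with the pattern most like each member were found over 39 sums of a cluster and a library, by Pearson's r of log2 CPM plus 10 among 9653 genes, as a description. The sums share libraries and depth. Cd4 was most like Bcl11b (0.975), Trac and Camk4, Cd8a most like Lcn4 (0.971), Cd3d and Klk8, and Cd8b1 most like Lcn4 (0.951), Cd8a and Cd3e. Gata3 was most like Zap70 (0.972), Tox and Gprin3. Runx3 was most like Ddx21 (0.953), Dnajc1 and Znrf2, and Zbtb7b most like Ctsa (0.890), L1cam and Zdhhc9. Over the same sums r was 0.88 between Cd4 and Cd8a and 0.01 between Cd4 and Zbtb7b. The T cell class entered these sums as clusters 2 and 15 alone, so r compares whole clusters and not cells within the T cells. Cd8a was seen in 0 of 87 db/db and 1 of 193 wt T cells with a Cd4 UMI.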

How the data were processed

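Blood cells of db/db and wt mice were measured in 1 droplet library per genotype. The deposited matrices hold raw counts, as UMI counts per gene and barcode, made with Cell Ranger 3.0.2 on mm10 per the submitters' processing notes; the annotation was not given in the sources used here. Tools were scanpy 1.11.5, leidenalg 0.10.2, scipy 1.17.1, pandas 2.3.3 and numpy 2.4.6 under Python 3.11.15. Barcodes with 200 to 6000 genes and under 10% mitochondrial UMIs were kept and clustered (Leiden resolution 1 on 15 neighbours in 30 principal components of 2000 variable genes), without the 6 genes. A name needed 3 markers among 50 leading genes. No doublet caller was run, and cells with at least 2 defining markers of another class were left out as an alternative. UMIs were summed per class and library as CPM with exact Poisson intervals. Ratios have exact conditional binomial intervals and log2 ratios use CPM plus 10. Genes needed 20 UMIs. The floor for 0 UMIs was set at 3 UMIs. Intervals cover counting error only.

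Named genes were the 6 members, the 3 genes most like each, and genes of the Cd8 over Cd4 contrast. Of that contrast, the 8 highest and 8 lowest genes were named among those whose ratio intervals excluded 1 in the same direction in both libraries. Also named were the lists of lineage regulators, CD4 helper genes, CD8 genes, unconventional T cell genes, type 2 genes and receptor complex genes. Contrasts within Cd4 cells were added after the data were seen. Members and lists were chosen with earlier results of these data known. Positions came from GENCODE M21 on GRCm38 and promoters from RefSeq. The summing and interval code was tested on simulated data. Alternatives changed 1 choice at a time.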

Additional observations from a re-analysis of the deposited data

Results flagged for a closer look

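The barcodes over the mitochondrial limit, which the comparisons do not use, also held Cd8b1. It was at 41.7 CPM in db/db (30.1 to 56.4, 42 UMIs) and 19.8 CPM in wt (13.8 to 27.5, 35 UMIs), above the limit that a count of 0 allows. The ratio of Runx3, db/db over wt, was 1.24 in B cells and 0.0365 in platelets, opposite directions, and the platelet value rests on 1 UMI in db/db and 6 in wt. The difference between the classes was not tested.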

How the results depend on the processing

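Of 358 alternative values of ratios, 335 stayed within the 95% interval of the main value, 23 lay outside it, and 0 values with an interval off the null turned round. In T cells Cd4, Zbtb7b and Gata3 stayed lower in db/db in all 16 alternatives, with log2 ratios of -0.69 to -0.35, -1.30 to -0.77 and -0.61 to -0.22. The Zbtb7b log2 ratio was -1.21 with cells thinned to 1000 UMIs and -1.30 with a pseudocount of 1 CPM, and that of Runx3 was -0.16 in thinned cells, with an interval that includes 0. The T cell genes past the mark numbered 248 and stayed within 1.5 times of it in 14 of 16 alternatives. It was 595 with a pseudocount of 1 CPM and 415 without T subclusters 1, 3, 6 and 7, an alternative chosen after seeing the data. The cause was not tested. The interval of Gata3 in T cells included 0 with a mitochondrial limit of 5% (-0.22) and in thinned cells (-0.29), and that of the share of T cells with a Cd4 UMI included 1 in thinned cells (0.683). Zbtb7b had 15 UMIs in db/db T cells, which limits its precision. No paired analysis was possible because the labels carry no replicate numbers and each genotype has 1 library, so no replicate could be left out.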
